A study of Mus musculus with 240 samples.

Results

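The 10 genes described here are those by which astrocytes are usually recognised: Gfap, Aqp4, Aldh1l1, Gja1, Gjb6, Slc1a2, Slc1a3, Aldoc, Sox9 and Slc4a4. They were taken by symbol from the 34623 mouse genes of the deposited count table, and all 10 were present. The study followed tdTomato-labelled oligodendrocyte precursor cells (OPCs) of mice from deletion of Trp53 and Nf1 to brain tumours, by RNA sequencing of cells cut from tissue sections with a laser. Bulk samples came from 10 µm sections of mutant mice, labelled Trp53-/- Nf1-/- and called CKO here, and of wild-type (WT) mice. There were 7 CKO and 5 WT animals at 12 days post induction (dpi, counted from the start of tamoxifen), 7 CKO and 5 WT animals at 90 dpi, and 7 tumour-bearing mutant animals and 6 WT animals at 150 dpi. Every bulk sample, WT included, was tdTomato-positive material from mice given tamoxifen. The labels do not name the driver of the recombinase or the number of cells cut. A further 192 small libraries were cut at 8 µm from the brains of CKO mice, 96 at 12 dpi and 96 at 90 dpi. At each time 56 hold 10 cells (10-cell) and 40 are portions of pooled cells (pool-and-split), a measure of technical spread. No WT mouse and no tumour is among the small libraries.

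In the GRCm38 coordinates of the count table Gfap lies on chromosome 11 from 102887336 to 102900912 (minus strand), Aldoc on chromosome 11 from 78322968 to 78327781 (plus) and Sox9 on chromosome 11 from 112782224 to 112787760 (plus). Slc1a3 lies on chromosome 15 from 8634124 to 8710764 (minus), Slc1a2 on chromosome 2 from 102658659 to 102790784 (plus), Slc4a4 on chromosome 5 from 88886818 to 89239653 (plus) and Aldh1l1 on chromosome 6 from 90486427 to 90600203 (plus). Gja1 lies on chromosome 10 from 56377330 to 56402513 (plus), Gjb6 on chromosome 14 from 57123303 to 57133611 (minus) and Aqp4 on chromosome 18 from 15389394 to 15403684 (minus). All 10 are protein coding, and none shares over 50% of a transcript at 95% identity or more with another gene. GENCODE M21 places a gene on the opposite strand across Gfap, Aqp4, Aldh1l1 and Slc1a2. The sources used here do not say whether counting used strand, so reads of these 4 genes and of their antisense partners cannot be told apart.

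Astrocytes clear glutamate and potassium from around synapses, pass metabolites to neurons, line vessels with water-permeable endfeet and are joined to each other by gap junctions. The 10 genes cover these tasks: the glutamate transporters Slc1a2 and Slc1a3, the water channel Aqp4, the sodium bicarbonate cotransporter Slc4a4, the gap junction proteins Gja1 (connexin 43) and Gjb6 (connexin 30), the folate enzyme Aldh1l1, the glycolytic enzyme Aldoc, the intermediate filament Gfap and the transcription factor Sox9. None is wholly confined to astrocytes. Sox9, Gfap and Slc1a3 are also known from radial glia and neural stem cells, and Gfap is known for its increase in reactive astrocytes around injury and tumours.

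RefSeq promoter windows of 300 bases (250 before and 50 after a transcription start, GRCm38.p6) were at hand for 8 of the 10 genes, 10 windows in all. Sox9 and Aqp4, which both rose in the tumours, had none. The letters TTCNNNGAA, which STAT factors bind, were in 3 of these 10 windows and in 8.30% of 32851 windows of all genes. The 3 windows belong to Gfap, Aldoc and Slc1a3. They are shown with the window of Gja1, in which none of the motifs searched was found, because Gfap and Aldoc rose and Gja1 fell in the tumours. Slc1a3, also with a match, did not pass the test against WT there (log2 difference -0.14, edgeR adjusted p 0.60). The windows of Slc1a2, Slc4a4, Aldh1l1 and Gjb6 held no match either. The choice was made with the directions known, and a link of motif and direction was not tested. Capitals mark the STAT match, in 5′ to 3′ direction on the gene's strand. The Gfap window is chr11:102897151-102897450 (minus strand, inside the gene's span in the count table), the Aldoc window chr11:78323948-78324247 (plus, at the second of 2 starts), the Slc1a3 window chr15:8710758-8711057 (minus) and the Gja1 window chr10:56377050-56377349 (plus).
Gfap: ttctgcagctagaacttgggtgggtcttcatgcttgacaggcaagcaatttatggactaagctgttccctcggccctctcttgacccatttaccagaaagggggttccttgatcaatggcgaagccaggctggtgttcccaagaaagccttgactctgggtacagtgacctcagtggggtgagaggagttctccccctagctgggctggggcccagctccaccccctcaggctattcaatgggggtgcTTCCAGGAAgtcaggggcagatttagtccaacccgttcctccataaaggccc
Aldoc: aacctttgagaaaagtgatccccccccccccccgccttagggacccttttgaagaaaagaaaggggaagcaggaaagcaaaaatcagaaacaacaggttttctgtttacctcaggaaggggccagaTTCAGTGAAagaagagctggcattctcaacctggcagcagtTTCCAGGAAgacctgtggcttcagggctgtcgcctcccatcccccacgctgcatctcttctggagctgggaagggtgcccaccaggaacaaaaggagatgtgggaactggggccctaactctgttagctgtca
Slc1a3: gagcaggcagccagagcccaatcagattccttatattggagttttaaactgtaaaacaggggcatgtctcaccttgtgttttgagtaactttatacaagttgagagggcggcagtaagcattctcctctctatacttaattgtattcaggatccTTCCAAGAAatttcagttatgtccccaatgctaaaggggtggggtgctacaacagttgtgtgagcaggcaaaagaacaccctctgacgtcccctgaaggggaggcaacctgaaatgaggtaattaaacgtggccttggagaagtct
Gja1: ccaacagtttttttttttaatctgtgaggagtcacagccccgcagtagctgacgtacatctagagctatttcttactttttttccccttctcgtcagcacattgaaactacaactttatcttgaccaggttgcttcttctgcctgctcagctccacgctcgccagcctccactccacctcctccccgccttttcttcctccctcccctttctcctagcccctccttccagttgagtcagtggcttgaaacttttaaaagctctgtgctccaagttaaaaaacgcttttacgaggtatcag
The Aldoc window held 2 matches, and those of Gfap and Slc1a3 held 1 each. The NFI letters TTGGCA, searched like the other non-palindromic motifs on both strands, were in 1 of the 10 windows (the first start of Aldoc) and in 14.1% of all windows. The SOX letters AACAAT and ACAAAG were in 0 of the 10, against 10.7% and 18.7% of all windows. A match describes the letters of the window and does not show that a factor binds there.

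Total counts per bulk animal ran from 0.0936 to 31.3 M (M, 1000000 counts). The lowest total, of WT_21167 at 90 dpi, left as few as 1 count (Aldh1l1) for a member, and every other animal had at least 11 counts of each. Levels are counts per 1000000 (CPM) of totals scaled by edgeR's TMM. Nf1 was at 176 to 216 CPM in CKO and 261 to 357 in WT animals at 12 dpi, whereas Trp53 overlapped between genotypes, 26.3 to 36.9 against 23.1 to 44.2 CPM. At 90 dpi Nf1 was at 149.5 to 302 CPM in CKO and 274 to 343 in WT, and at 150 dpi at 149 to 273 in tumours and 252 to 355 in WT, so the ranges overlapped. The labels do not give the deleted exons. At 90 dpi CKO_20647 stood apart. Its 2 libraries had 9.67 and 9.47 M counts and an r of 0.80 across genes on the log2 scale, against 0.94 to 0.99 in the 10 other animals with 2 libraries. The first (its label ends in ACTAA) had 153 CPM of Gfap and 1888 of Slc1a2, and the second (GAGCT) 5.07 and 7921. The 12 neuronal markers summed to 8488 CPM in the first and 20266 in the second, and 12 oligodendrocyte markers to 2986 and 376. Some results that rest on this animal are also given without it or with its first library alone, the latter an alternative chosen after the libraries were seen to disagree. Against their label as OPCs, the 30 samples other than tumours held 6943 to 16754 CPM of the neuronal markers beside 3028 to 5784 CPM of 16 OPC markers, and no defining marker of neurons, microglia or oligodendrocytes was at 0 in a whole group. In bulk samples more cells of a type and more RNA per cell cannot be told apart.

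Away from the tumours the 10 genes kept much the same order of abundance. Levels per kb of exon can be set beside each other across genes, if coverage is even, which was not tested. Slc1a2 was first in all 5 groups, at 167 ± 35.3 CPM per kb in WT at 150 dpi (SD, n = 6), and in each group its lowest animal was above the highest animal of the next gene. Aldoc, Slc4a4 and Slc1a3 came next, between 45.3 and 79.7 CPM per kb. Gja1, Aqp4, Gfap, Sox9 and Gjb6 lay between 5.80 and 22.1, mostly with overlapping SDs, and Aldh1l1 was last in each group at 1.22 to 2.29. Tumours had another order, led by Aldoc at 88.6 ± 29.5 and Slc1a2 at 80.7 ± 52.1 CPM per kb (SD, n = 7). Gfap was at 43.5 ± 21.1 CPM per kb there (SD, n = 7), behind Slc1a3, but in tumours every gene overlapped its neighbour in the order over animals.

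**Figure D1:**
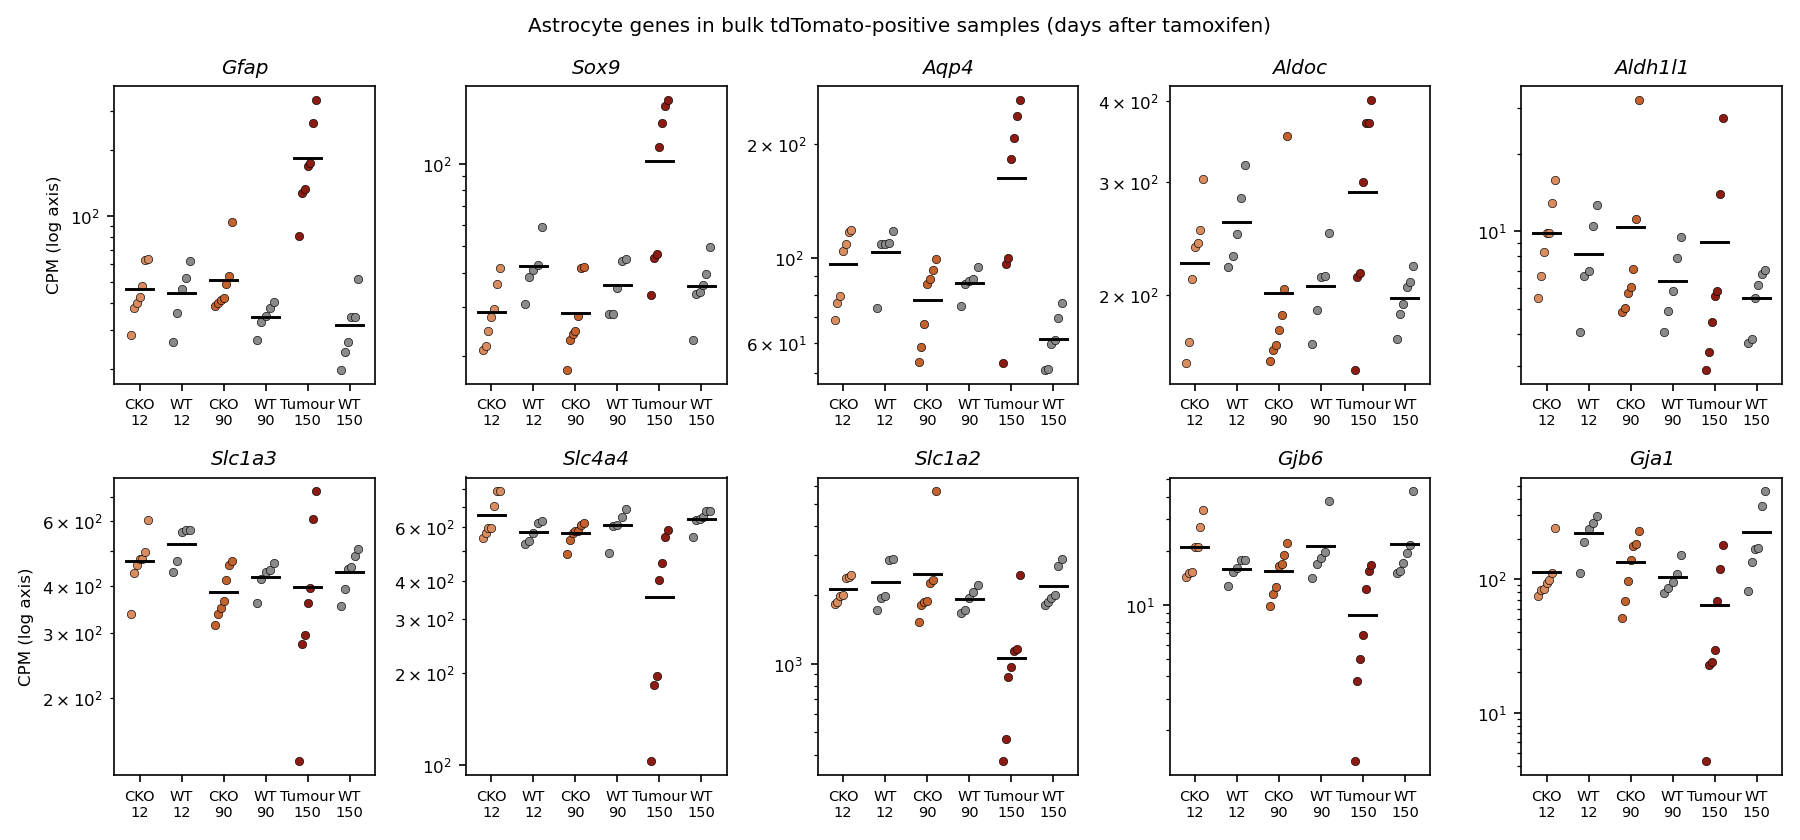
CPM (log axis) of each of the 10 genes in each bulk animal, by group, numbers under the groups being days after tamoxifen; points are animals and bars are arithmetic means. The 7 tumours lie above every WT animal for Gfap, and tumours range over 41.7-fold for Gja1, while the high point of CKO at 90 dpi in the Slc1a2 panel is CKO_20647.

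The comparison of tumours with WT cells of the same time asked how the end stage differs from normal cells. Of the 10 genes 8 were called at an adjusted p under 0.05, 4 higher and 4 lower. Over all 16349 genes tested 46.2% were called, 24.3% as higher and 21.9% as lower. The 4 that rose were the filament gene Gfap, the transcription factor Sox9, the water channel Aqp4 and the aldolase Aldoc. The 4 that fell were both connexins, Gja1 and Gjb6, the glutamate transporter Slc1a2 and the cotransporter Slc4a4. Animals of the 2 groups did not overlap for 1 of the 10 genes (Gfap), against 15.7% of all genes tested.

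Gfap was measured at 339, 168, 132, 265, 80.4, 127 and 174 CPM in Tumor_16713, Tumor_16839, Tumor_16840, Tumor_16844, Tumor_21256, Tumor_21349 and Tumor_21354, the order used for tumours from here on. In WT_21590, WT_21591, WT_21592, WT_21593, WT_22062 and WT_22064 it was at 26.5, 19.7, 34.6, 34.3, 23.7 and 51.4. All 7 tumours were above every WT animal. The means were 184 ± 89.1 CPM (SD, n = 7) and 31.7 ± 11.3 CPM (SD, n = 6), a ratio of 5.79, and the log2 difference was 2.52 (SE 0.29, 95% interval 1.94 to 3.10, edgeR adjusted p 3.68e-09). It stayed between 2.30 and 2.77 when each animal was left out in turn.

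Sox9, which acts in glial fate and in stem cells, was at 33.2, 162, 115, 45.4, 46.9, 171 and 141 CPM in the tumours and 33.6, 34.2, 39.7, 22.8, 36.1 and 49.5 in WT. Tumor_16839, Tumor_16840, Tumor_21349 and Tumor_21354 were above every WT animal, and the other 3 lay within the WT range. The log2 difference was 1.50 (SE 0.30, 95% interval 0.89 to 2.12, edgeR adjusted p 8.91e-05). Aqp4 was at 100.3, 262, 96.8, 238, 182, 52.9 and 208 CPM in the tumours and 60.9, 50.8, 51.0, 69.8, 59.5 and 76.4 in WT. Here 6 of 7 tumours exceeded every WT animal, and Tumor_21349 was among the WT values. The log2 difference was 1.36 (SE 0.23, 95% interval 0.89 to 1.83, edgeR adjusted p 8.31e-06).

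Aldoc was at 153, 213, 402, 370.5, 370.1, 216 and 299 CPM in the tumours and 222, 171, 187, 206, 209 and 194 in WT. In 4 tumours it was above every WT animal, and in Tumor_16713 below every one. Its log2 difference of 0.55 (SE 0.20, 95% interval 0.15 to 0.94, edgeR adjusted p 0.0215) was the smallest of the 8. The call was lost when only the tumours and WT at 150 dpi entered the fit (adjusted p 0.0609) and when only the deepest library of each animal was used (0.0554).

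Gja1, which forms the main astrocyte gap junctions, was at 22.8, 119, 24.0, 68.7, 179.8, 4.31 and 29.5 CPM in the tumours and 169, 349.6, 455, 81.9, 168 and 133 in WT. In 5 tumours it was below every WT animal, while Tumor_16839 and Tumor_21256 lay within the WT range. The means were 64.1 ± 64.0 CPM (SD, n = 7) and 226 ± 144 CPM (SD, n = 6), and the log2 difference was -1.89 (SE 0.48, 95% interval -2.87 to -0.92, edgeR adjusted p 0.00142). Gjb6, the second astrocyte connexin, was at 12.3, 3.77, 5.00, 6.82, 16.8, 1.34 and 15.5 CPM in the tumours and 19.4, 15.1, 43.1, 21.5, 17.0 and 15.4 in WT. Tumor_16713, Tumor_16839, Tumor_16840, Tumor_16844 and Tumor_21349 were below every WT animal, and 2 were within the WT range. The log2 difference was -1.31 (SE 0.35, 95% interval -2.03 to -0.59, edgeR adjusted p 0.00262), and the call was lost with the compared groups alone (adjusted p 0.0563).

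Slc1a2, the transporter that takes up most synaptic glutamate, was at 467, 1162, 967, 870.4, 2449, 373 and 1134 CPM in the tumours and 2004, 2888, 2676, 1938, 1857 and 1811 in WT. Tumor_21256 was within the WT range and the 6 others were below it. The means were 1060.4 ± 685 CPM (SD, n = 7) and 2196 ± 464 CPM (SD, n = 6), and the log2 difference was -1.07 (SE 0.26, 95% interval -1.59 to -0.55, edgeR adjusted p 0.000786). Slc4a4 was at 103, 404, 195, 557, 459, 182 and 586 CPM in the tumours and 555, 677, 631, 676, 645 and 636 in WT. Tumor_16844 and Tumor_21354 were above the lowest WT animal, WT_21590, and below every other WT animal. The other 5 tumours were below all WT animals. The log2 difference was -0.89 (SE 0.21, 95% interval -1.32 to -0.45, edgeR adjusted p 0.000876).

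The remaining pair did not pass the test. Slc1a3, the other glutamate transporter, was at 134, 725, 395, 359.7, 295, 280.2 and 608 CPM in the tumours and 394, 506, 482, 446, 353 and 451 in WT. Tumours lay on both sides of the WT animals, 2 above and 3 below all of them, with a log2 difference of -0.14 (SE 0.20, 95% interval -0.54 to 0.26, edgeR adjusted p 0.60). Aldh1l1 was at 3.40, 4.44, 5.88, 27.6, 5.59, 2.90 and 14.0 CPM in the tumours and 3.82, 5.51, 6.80, 7.09, 3.67 and 6.20 in WT. Tumor_16844 and Tumor_21354 were above every WT animal and 2 were below, with a log2 difference of 0.65 (SE 0.43, 95% interval -0.22 to 1.51, edgeR adjusted p 0.22). The 2 glutamate transporters thus had different fitted differences. The log2 ratio of Slc1a3 to Slc1a2 within an animal was -1.34 ± 0.88 over the 7 tumours (SD) and -2.31 ± 0.20 over the 6 WT animals (SD). The tumour range of this ratio, -3.05 to -0.41, held all 6 WT animals.

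**Figure D2:**
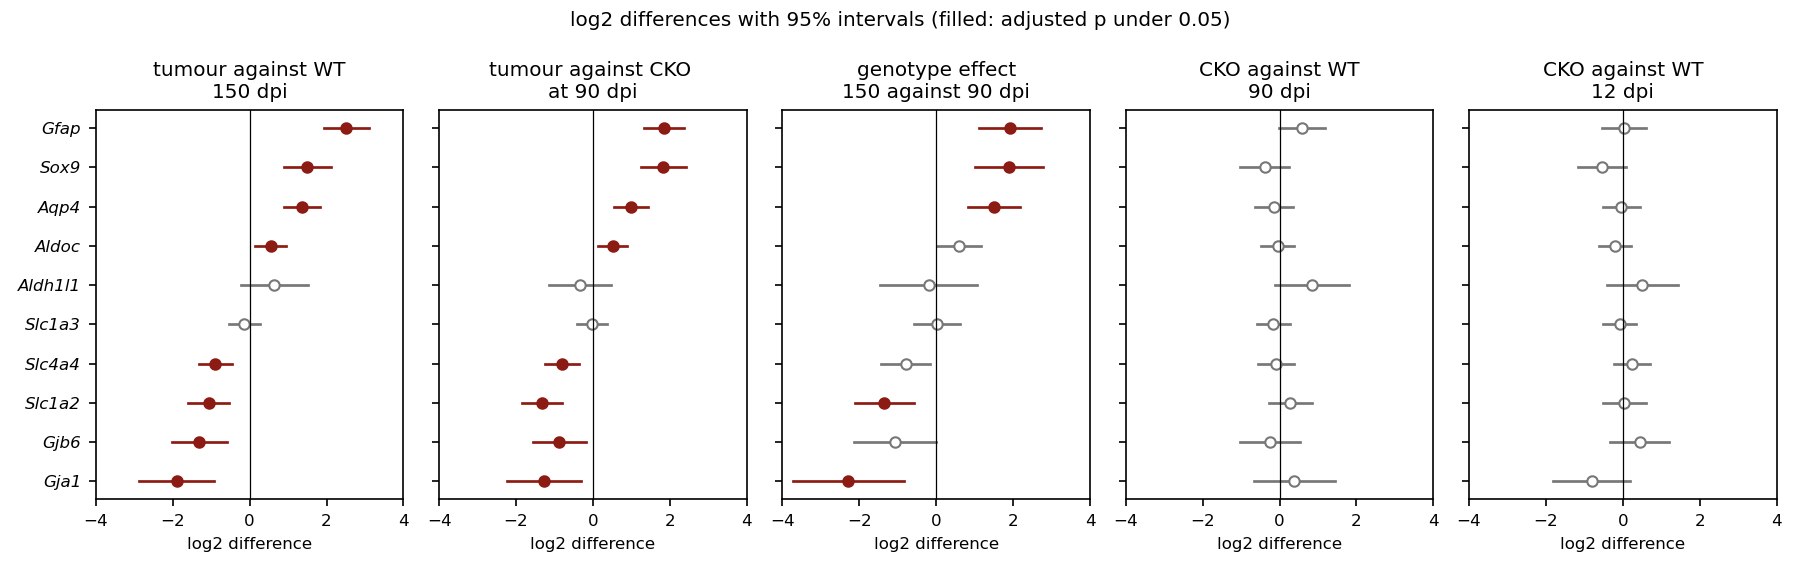
Fitted log2 differences (x axis) with 95% intervals for the 10 genes (rows) in 5 comparisons; filled symbols passed an edgeR adjusted p of 0.05. In both tumour comparisons 4 genes are higher and 4 lower, 5 pass in the genotype effect of 150 against 90 dpi, and no interval of a premalignant comparison is filled.

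Ratios within an animal do not depend on how libraries are scaled. The genes were paired with their directions known, so the ratios are descriptions. How many other gene pairs separate tumours from WT in this way was not computed. The log2 ratio of Gfap to Slc1a2 was -2.43 ± 1.40 in the tumours, from -4.93 to -0.46 (SD, n = 7), against -6.15 ± 0.67 in WT at 150 dpi, from -7.18 to -5.13 (SD, n = 6). All tumours were above all WT animals in this ratio. The log2 ratio of Aqp4 to Gja1 was 1.92 ± 1.14 over the 7 tumours (SD) and -1.66 ± 1.12 over the 6 WT animals (SD), again without overlap (0.02 to 3.57 against -3.15 to -0.23). Of 6 ratios computed 2 overlapped, Sox9 to Slc1a2 (-5.70 to -1.13 in tumours, -6.40 to -5.19 in WT) and Slc1a3 to Slc1a2 (-3.05 to -0.41 in tumours, a range that holds the lowest WT animal at -2.51). Under RLE scaling the median log2 difference of all genes moved from 0.06 to 0.22 in tumours against WT, from 0.12 to 0.29 in tumours against CKO at 90 dpi and from 0.04 to 0.20 in the genotype effect. The 8 genes called against WT kept their direction under RLE scaling and in DESeq2.

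Tumours differed among themselves more than WT animals did for each of the 10 genes. The share of all genes tested for which this holds was not computed, so it is not shown to be particular to these 10. Their range was 41.7-fold for Gja1, 12.5-fold for Gjb6, 9.52-fold for Aldh1l1 and 4.22-fold for Gfap, against 5.55, 2.85, 1.93 and 2.61-fold in WT at 150 dpi. The SD over tumours on the log2 scale ran from 0.52 (Aldoc) to 1.79 (Gja1), and the median difference between the 2 libraries of a tumour from 0.08 (Slc4a4) to 0.59 (Gja1). Tumor_21349 was lowest of the tumours for Gja1, Gjb6, Aqp4, Aldh1l1 and Slc1a2 and highest for Sox9. Tumor_21256 was highest for Gja1, Gjb6 and Slc1a2 and lowest for Gfap. The 2 libraries of Tumor_16713 differed, with 594 and 242 CPM of Gfap and 227 and 32.1 of Aqp4.

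**Figure D3:**
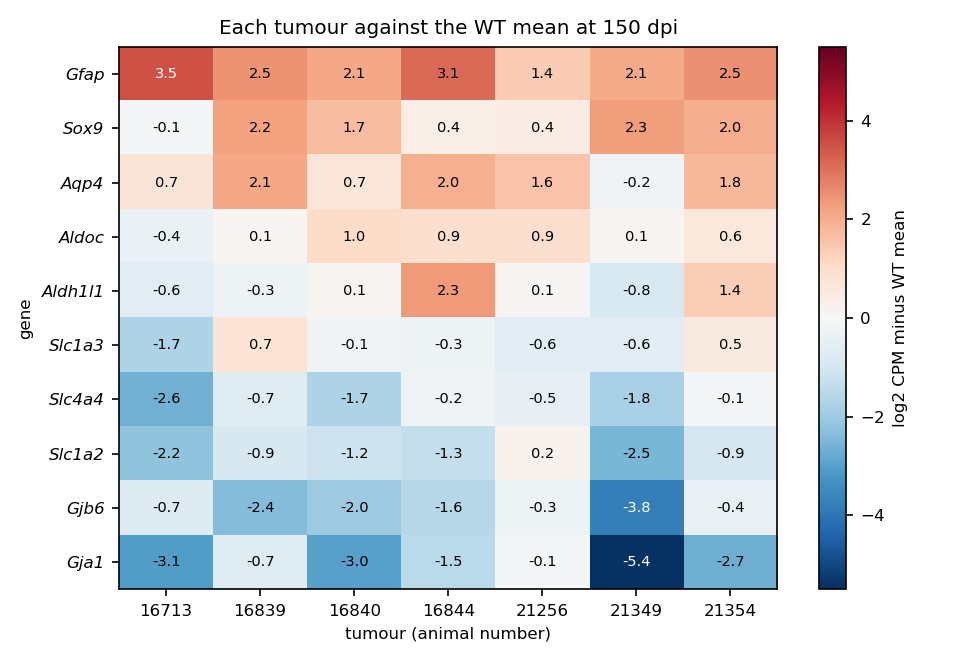
Difference in log2 CPM between each tumour (columns, by animal number) and the mean of the 6 WT animals at 150 dpi, for each of the 10 genes (rows); red is higher and blue is lower. Gfap is above the WT mean in 7 of 7 tumours and Gja1, Gjb6 and Slc4a4 below it in 7 of 7, with the lowest value for Gja1 in Tumor_21349 (-5.43).

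Markers of other cell types moved with the tumour comparison. The neuronal markers summed to 295 to 1669 CPM in tumours against 8111 to 11692 in WT at 150 dpi, and 10 of 12 fell and 0 rose. The microglial markers summed to 558 to 1694 against 152 to 290 CPM, and 11 of 12 rose. OPC markers summed to 5364 to 15051 against 3204 to 5784 CPM, and 12 of 16 rose and 1 fell. Oligodendrocyte markers summed to 514 to 1812 against 1704 to 3597 CPM, and 7 of 12 fell and 1 rose. Among tumours, Tumor_21256, highest for Slc1a2, had the highest neuronal sum (1669 CPM), and Tumor_16713 and Tumor_21349, lowest for Slc1a2, the lowest (295 CPM each). The 2 libraries of Tumor_16713 disagreed, with neuronal sums of 714 and 57.7 CPM before scaling. Their Slc1a2 levels were 810 and 339 CPM before scaling. Of 14 endothelial and mural markers 1 rose and 5 fell, and of 3 ependymal genes tested 1 rose. The part of these cell types in the levels of the 10 genes was not tested.

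Other genes of astrocytes, from lists that hold none of the 10, were read from the same fit. Of 29 further astrocyte markers 8 rose and 5 fell, with a median log2 difference of 0.08 against 0.06 over all genes tested. Agt, the angiotensin precursor, was at 5.76 to 66.8 CPM in tumours and 0 to 1.61 in WT, with 2 of 6 WT animals at 0. Mfge8 rose by 1.57 on the log2 scale, while the amino acid transporter Slc7a10 and the NMDA receptor subunit Grin2c fell by 1.99 and 1.70 on the log2 scale. Of 9 genes of glutamate and glycogen handling 2 rose (Slc1a4, a neutral amino acid transporter, 1.40; Gys1, glycogen synthase, 0.91) and 1 fell (Ldhb, -1.21). Of 9 genes of potassium, water and ion handling 3 rose, with Dag1 (dystroglycan) at 0.81, and 3 fell, with Slc12a2, a sodium, potassium and chloride cotransporter, at -0.91. Of 8 other connexins and junction partners 2 rose (Gjc3 1.74, Tjp1 0.69) and 2 fell (Panx1 -1.06, Gjd2 -1.06).

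Among 19 genes known from reactive astrocytes 16 rose and 0 fell, with a median log2 difference of 3.29. The complement gene C3 was at 1.35 to 60.3 CPM in tumours and 0 to 0.764 in WT, where 3 of 6 animals had 0 counts. The chemokine Cxcl10 was at 2.58 to 144 CPM in tumours and had 1 count in all WT animals together. Several of these genes, C3, Cxcl10 and Vim among them, are also expressed by microglia or other cells. Of 17 regulators of astrocyte fate 11 rose, with Fabp7, a radial glial lipid carrier, at 3.08 and the BMP target Id3 at 3.04, and 2 fell (Pax6 -1.08, Notch2 -0.51). The median of these regulators was 1.15. With RLE scaling or DESeq2 no called gene of these lists changed direction, and the counts moved by at most 2 genes a list and direction.

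Tumours were next set against CKO cells at 90 dpi, which share the genotype and differ in time and in not being tumours. The same 8 genes were called, 4 higher and 4 lower, where 49.1% of all genes tested were called (26.4% higher, 22.6% lower). In CKO at 90 dpi Gfap was at 38.7, 42.1 and 93.2 CPM (lowest, median and highest of 7 animals), and 6 of 7 tumours exceeded all of them. The highest of these values was CKO_20647, whose libraries disagreed. No member separated the tumours wholly from CKO at 90 dpi, against 17.2% of all genes tested. The log2 differences of the genes that rose were 1.85 (SE 0.26, 95% interval 1.32 to 2.38, edgeR adjusted p 2.61e-07) for Gfap, 1.83 (SE 0.29, 95% interval 1.25 to 2.41, edgeR adjusted p 1.81e-06) for Sox9 and 0.98 (SE 0.22, edgeR adjusted p 0.000316) for Aqp4. Of the genes known from reactive astrocytes 15 of 19 rose and 0 fell here, and of the fate regulators 14 of 17 rose and 0 fell. With the first library of CKO_20647 alone, Gfap differed by 1.62.

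Slc1a2 was at 1526, 1879 and 5703 CPM in CKO at 90 dpi, the highest being CKO_20647, and 6 of 7 tumours were below every CKO animal. Its log2 difference was -1.32 (SE 0.25, 95% interval -1.83 to -0.81, edgeR adjusted p 4.08e-05), and -0.98 with the first library of CKO_20647 alone. Slc4a4 fell by 0.81 on the log2 scale (SE 0.21, edgeR adjusted p 0.00191). Aldh1l1 and Slc1a3 were not called, at -0.33 (SE 0.40, edgeR adjusted p 0.51) and -0.01 (SE 0.19, edgeR adjusted p 0.96).

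The 3 other calls of this comparison depended on single animals and on the processing. Gja1, with -1.28 (SE 0.47, 95% interval -2.24 to -0.32, edgeR adjusted p 0.0239), lost its call without Tumor_16713 (adjusted p 0.0602), without Tumor_16840 (0.0579) and without CKO_20647 (0.0588), and with no sex covariate (0.0541). Gjb6, with -0.87 (SE 0.34, 95% interval -1.57 to -0.18, edgeR adjusted p 0.033), lost it without Tumor_16839 (0.066), Tumor_16840 (0.0851), Tumor_16844 (0.0624), Tumor_21349 (0.0828), CKO_20647 (0.0594), CKO_22154 (0.0552) or CKO_22212 (0.0822), and in DESeq2 (0.0813). Its call was also lost with RLE size factors (0.0967), among genes with a mean of at least 10 CPM (0.0798), with the deepest library of each animal (0.0559), with the first library of CKO_20647 alone (0.0708) and with the compared groups alone (0.11). Aldoc, with 0.52 (SE 0.19, 95% interval 0.14 to 0.90, edgeR adjusted p 0.0218), lost it without Tumor_16840 (0.0757), Tumor_21256 (0.057) or CKO_20642 (0.0531), and with the compared groups alone (0.13). Without Tumor_16840 all 3 were lost and 5 of the 10 genes were called.

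Whether mutant and WT cells differed by another amount at 150 than at 90 dpi was tested as the change of the genotype effect. Of the 10 genes 5 were called, where 30.0% of all genes tested were (14.2% higher, 15.8% lower). On the log2 scale the shift was upward for Gfap, at 1.93 (SE 0.39, edgeR adjusted p 0.000237), for Sox9, at 1.89 (SE 0.43, edgeR adjusted p 0.000835), and for Aqp4, at 1.50 (SE 0.33, edgeR adjusted p 0.000579). It was downward for Gja1, at -2.28 (SE 0.72, edgeR adjusted p 0.0138), and for Slc1a2, at -1.35 (SE 0.38, edgeR adjusted p 0.00554). Over the alternative settings, the first library of CKO_20647 alone among them, Gfap ran from 1.53 to 2.11 and Slc1a2 from -1.42 to -1.06. Both kept their calls. Slc1a3 and Aldh1l1 were not called, at 0.02 (SE 0.29, edgeR adjusted p 0.97) and -0.20 (SE 0.63, edgeR adjusted p 0.86). This test shares the tumours with both comparisons above, so the 3 are not independent. Over all genes the call split was 2314 higher and 2589 lower, and 2932 and 2185 with RLE size factors.

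Slc4a4, at -0.79 (SE 0.31, edgeR adjusted p 0.0526), Aldoc, at 0.60 (SE 0.29, edgeR adjusted p 0.11), and Gjb6, at -1.07 (SE 0.53, edgeR adjusted p 0.13), were not called in this test either. Aldoc passed without Tumor_16713 (adjusted p 0.0429), without CKO_20647 (0.018), with RLE size factors (0.0361) and in DESeq2 (0.0293). Slc4a4 passed without Tumor_16844 (0.0295), Tumor_21256 (0.041), Tumor_21354 (0.0254), WT_21590 (0.0447) or CKO_20647 (0.0382). With the first library of CKO_20647 alone both passed, and 7 of the 10 genes were called.

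Before tumours, no difference in the 10 genes passed the test. At 12 dpi 0 of 10 were called between CKO and WT (edgeR; 0 at an unadjusted p under 0.05, 0 in DESeq2), where 0.0183% of all genes were. At 90 dpi 0 of 10 were called (0 unadjusted, 0 in DESeq2; 0.0489% of all genes). The 95% intervals of the 10 log2 differences lay within -1.82 and 1.43 at 12 dpi and within -1.03 and 1.80 at 90 dpi. In simulated counts the comparison of tumours with WT at 150 dpi recovered 22% of 2-fold and 98% of 4-fold changes. There 50 genes of 15856 were changed at each fold, and every gene was given the same relative spread. In the measured tumour comparison 46.2% of all genes were called, so these shares do not give its recovery. The comparisons of CKO with WT at 12 and 90 dpi were not simulated, so the shares do not give their recovery either.

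Gja1 had the lowest fitted value at 12 dpi. It was at 74.4, 93.0 and 240.0 CPM in CKO (lowest, median and highest of 7) and 294, 111, 263, 190.3 and 237 in the 5 WT animals. The groups overlapped through CKO_22017 alone, the highest CKO animal. The next highest, CKO_22364, was at 111.0 CPM and the lowest WT animal, WT_22178, at 111.4. The log2 difference was -0.81 (SE 0.50, 95% interval -1.82 to 0.20, edgeR adjusted p 1.00). Gfap at 90 dpi was at 38.7, 42.1 and 93.2 CPM in CKO and 37.9, 35.0, 32.6, 26.9 and 40.3 in the 5 WT animals, with a log2 difference of 0.59 (SE 0.30, 95% interval -0.01 to 1.19, edgeR adjusted p 0.96). Without CKO_20647 that difference was 0.35, and with its first library alone 0.81.

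Over time within a genotype, 0 of the 10 genes were called between 90 and 12 dpi in CKO (edgeR; 0 unadjusted, 0 in DESeq2), and 0% of all genes were. In WT 0 of 10 were called between 90 and 12 dpi (0 unadjusted, 0 in DESeq2; 0.00612% of all genes). When only these 2 WT groups entered the fit, Gja1 was called, at -1.22 (edgeR adjusted p 0.015), as were 2.08% of all genes. It was at 294, 111, 263, 190.3 and 237 CPM at 12 dpi and 152, 109, 79.1, 94.8 and 85.9 at 90 dpi, the first of the latter being WT_21167 with 16 counts. Between 150 and 90 dpi in WT 0 of 10 were called (0 in DESeq2; 0.0183% of all genes), and 1, Aqp4, had an unadjusted p under 0.05, with a log2 difference of -0.52. The genotype effect did not change between 12 and 90 dpi by an amount that passed the test for any member (0 of 10; 0 unadjusted, 0 in DESeq2; 0% of all genes).

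The small libraries were read in sets defined by time, sex and the number that ends the label, 4 sets per time of 14 10-cell and 10 pool-and-split libraries, whose counts were summed. The labels do not say whether a set is 1 animal. The preparation differs from that of the bulk samples (polyA RNA with PCR against total RNA with T7 amplification), and levels are given side by side without a comparison. Gja1 was at 112.1 ± 57.6 CPM in bulk CKO animals at 12 dpi (SD, n = 7) and at 5.56 ± 2.81 in the 10-cell sets (SD, n = 4). Aldoc was at 224 ± 50.3 in bulk (SD, n = 7) and at 1660.5 ± 812 in the 10-cell sets (SD, n = 4). Slc1a2, Slc1a3 and Aldoc had a count in all 192 small libraries.

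Gfap was the member that separated the times in the 10-cell sets. It was at 41.8, 14.6, 34.7 and 44.7 CPM in sets female 1, female 2, male 1 and male 2 at 12 dpi and at 82.8, 57.9, 153 and 251 at 90 dpi. Every set at 90 dpi was above every set at 12 dpi, which held for 1 of the 10 genes and for 5.48% of all genes tested in either direction. The log2 difference was 1.83 (SE 0.49, 95% interval 0.72 to 2.94, edgeR adjusted p 0.63). None of the 10 genes was called (edgeR; 2 at an unadjusted p under 0.05, 1 in DESeq2), nor was any other gene (0%). Gfap was called in DESeq2 (adjusted p 0.038) and with each library as a replicate (0.0401), which treats libraries of a set as independent. Over all genes tested 1.88% were called in DESeq2 and 3.48% with each library as a replicate. On simulated 10-cell sets the test recovered 0% of 8-fold and 2% of 16-fold changes.

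In the pool-and-split sets Gfap was at 26.3, 170.3, 115 and 10.9 CPM at 12 dpi and 111, 83.1, 134 and 175 at 90 dpi. The times overlapped, as for all 10 genes (5.88% of all genes did not), and the log2 difference was 0.63 (SE 0.82, 95% interval -1.19 to 2.46, edgeR adjusted p 0.90). Slc1a3, the second member at an unadjusted p under 0.05 in the 10-cell sets, was at 259, 164, 279 and 402 CPM at 12 dpi and 174, 114, 105 and 103 at 90 dpi, with 1 set of the later time within the earlier range and a log2 difference of -1.14 (SE 0.37, 95% interval -1.97 to -0.30, edgeR adjusted p 0.64). In the pool-and-split sets its log2 difference was -1.43 (SE 0.59, 95% interval -2.73 to -0.13, edgeR adjusted p 0.61). None of the 10 genes was called there (edgeR; 1 unadjusted, which was Slc1a3, 0 in DESeq2), nor was any other gene (0%). Sox9 had log2 differences of 1.91 (SE 1.00, 95% interval -0.34 to 4.17, edgeR adjusted p 0.72) in the 10-cell and 1.18 (SE 1.30, 95% interval -1.71 to 4.06, edgeR adjusted p 0.87) in the pool-and-split sets.

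**Figure D4:**
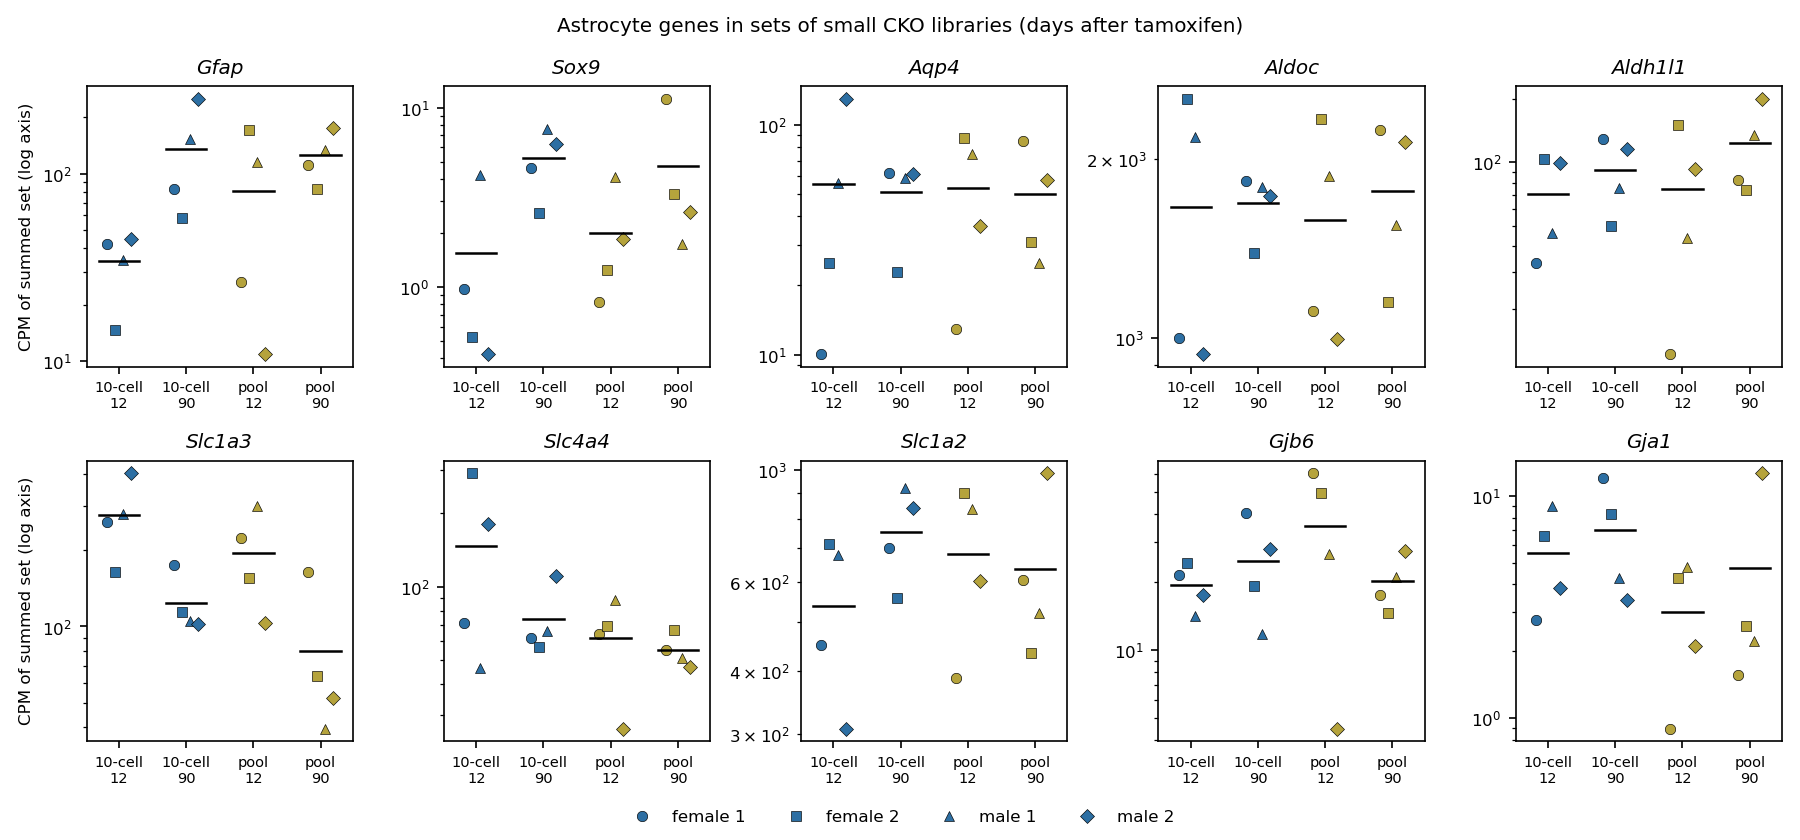
CPM (log axis) of each of the 10 genes in the summed sets of small CKO libraries, 10-cell (blue) and pool-and-split (yellow) at 12 and 90 dpi; symbols mark the sex and number of a set and bars are arithmetic means. In the Gfap panel the 10-cell sets run from 14.6 to 44.7 CPM at 12 dpi and from 57.9 to 251 at 90 dpi, while the pool-and-split sets overlap.

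Counts above 0 of Gfap were found in 39 of 56 10-cell libraries at 12 dpi and 54 of 56 at 90 dpi, and in 31 and 40 of 40 pool-and-split libraries. Sox9 was found in 21 and 42 of 56 10-cell libraries, Aldh1l1 in 33 and 53, and Aqp4 in 34 and 52. A 10-cell library held a median of 8 of the 10 genes at 12 dpi (3 to 10) and 10 at 90 dpi (7 to 10). The median number of all genes found moved the same way, from 7550 to 10110, and was 8690.5 and 8739 in the pool-and-split libraries, which held a median of 9 of the 10 at both times. Summed oligodendrocyte markers had a median of 609 CPM in 10-cell libraries at 12 dpi and 1864 at 90 dpi, and microglial markers 224 and 658. The part of these differences in the Gfap levels and in the counts above was not tested. Single 10-cell libraries varied widely: Gfap ran from 0 to 818 CPM at 90 dpi with a median of 92.5, against 0 to 566 and 0.980 at 12 dpi. At 12 dpi the 3 highest libraries held 68.8% of the summed Gfap CPM of the 56, and at 90 dpi 27.9%.

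Whether 10-cell libraries varied more than pool-and-split libraries was tested on absolute deviations of log2(CPM + 1) from the median of a set. Each library was a unit (56 and 40 per time), so these p-values treat libraries of a set as independent. At 12 dpi 0 of 9 members tested were called (limma; 1 at an unadjusted p under 0.05), where 0.0252% of all genes were, Sox9 being left out for detection in under 50% of libraries. At 90 dpi 0 of 10 were called (limma; 2 at an unadjusted p under 0.05), where 0.639% were. The 10-cell minus pool-and-split difference of Slc1a3 was 0.79 log2 units at 12 dpi (SE 0.32, limma adjusted p 0.43) and -0.66 at 90 dpi (SE 0.26, limma adjusted p 0.22). Slc1a2 had a difference of -0.70 at 90 dpi (SE 0.20, limma adjusted p 0.0653), which passed when only genes found in 90% of libraries were tested (limma adjusted p 0.0394), when 2.35% of all genes were called. With the mean deviation of each set as 1 value its adjusted p was 0.27 (limma). The change of these differences over time was not tested.

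The 10 genes varied together only in part. Over the 37 bulk animals, centred on their group, the median Pearson r of log2(CPM + 1) over the 45 pairs was 0.33 and 36 pairs were above 0. Gja1 and Slc1a2 had the highest r (0.68) and Gjb6 and Sox9 the lowest (-0.37). Within the 7 tumours Gja1 and Slc1a2 were highest (0.86), whereas over the 30 other animals their r was 0.43. Over those 30 the highest r was that of Aldh1l1 and Slc1a2 (0.74) and the lowest that of Aldoc and Slc4a4 (-0.39). Both values include CKO_20647, whose libraries disagreed, and neither was computed without it. That animal had the highest Aldh1l1 and Slc1a2 of CKO at 90 dpi, 32.4 and 5703 CPM. Over the 10-cell libraries of both times, centred on their set, the median was 0.14 with 39 of 45 pairs above 0, from -0.19 (Slc1a2 and Slc4a4) to 0.37 (Aqp4 and Gjb6). In the 80 pool-and-split libraries it was 0.08. Members measured in 1 library share its depth and its cells, and these values are descriptions.

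**Figure D5:**
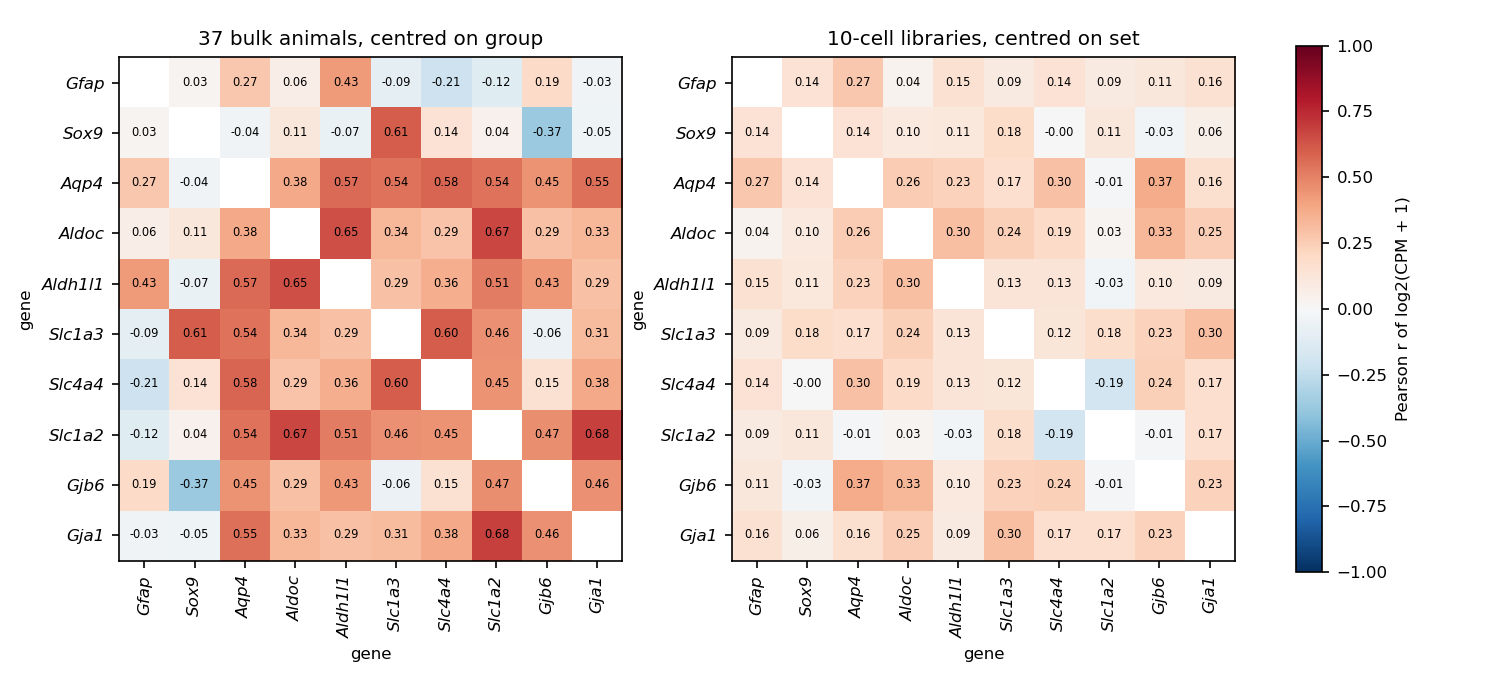
Pearson r of log2(CPM + 1) between the 10 genes, over 37 bulk animals centred on their group (left) and 10-cell libraries (56 at each time) centred on their set (right); red is positive and blue negative. The median over pairs is 0.33 in the bulk panel and 0.14 in the 10-cell panel.

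Genes outside the 10 whose levels were most like the mean of the members over the 10-cell libraries were Apoe (r 0.57), the apolipoprotein made by astrocytes and microglia, Plpp3 (0.52), Fgfr3 (0.51), a receptor also used as an astrocyte marker, Mt2 (0.50) and Esam (0.50), an endothelial adhesion molecule, of 7242 candidates. Over the 37 bulk animals, CKO_20647 among them, they included Shisa9 (0.77), Gpr158 (0.76) and Nrsn1 (0.73), of 8166 candidates. No gene was in both sets of 5.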

How the data were processed

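RNA was sequenced from laser-captured cells of mouse brain sections. The authors deposited expected counts per gene, made with RSEM and Bowtie2 on GRCm38 per the submitters' processing notes (versions not given in the sources used here). Libraries of 1 animal were summed, giving 37 bulk animals from 48 libraries, and the expected counts were rounded to whole numbers. Genes passed edgeR's filter (minimum count 10, minimum total 15), leaving 16349 in bulk, 14500 in 10-cell sets and 13408 in pool-and-split sets. All groups entered 1 quasi-likelihood fit with sex as a covariate, TMM scaling and a prior count of 2 (edgeR 4.0.16, R 4.3.3). Adjusted p is Benjamini-Hochberg over all genes tested, and calls are at 0.05. Spread was tested with limma 3.58.1 on log2(CPM + 1). Alternatives were DESeq2 1.42.0, other scalings, filters and covariates, and leaving out each animal or set. The code was tested on simulated data. The units behind the p-values are animals or sets in the main tests of level. In the spread test, and in the alternative with each library as a replicate, each library is a unit. The spread alternative with the mean deviation of each set takes the set and kind as the unit.

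The 10 genes, the 12 other lists and the tests were chosen with earlier results of these data known. All 10 genes are named, with up to 2 largest rises and falls among the called genes of each astrocyte list, and the 5 other genes most like the mean of the 10. Ependymal, endothelial, neuronal, microglial, oligodendrocyte and OPC lists are given by counts. Some genes that this rule names are not reported here.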

Additional observations from a re-analysis of the deposited data

Results flagged for a closer look

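Of 100 groups of 4 to 7 values tested for a value far from the others, 8 had one, where chance gives about 1 in 20. In 3 of them the value came from CKO_20647 at 90 dpi, the animal whose 2 libraries disagreed: Gfap at 93.2, Slc1a2 at 5703 and Aldoc at 353 CPM were each the highest of 7 CKO animals. Aqp4 was far from the others in WT_22280 at 12 dpi (74.0 CPM) and in the 10-cell set female 2 at 90 dpi (22.8 CPM). Gja1 stood out in CKO_22017 at 12 dpi (240.0 CPM), Gjb6 in WT_21592 at 150 dpi (43.1 CPM) and Slc4a4 in WT_21590 at 150 dpi (555 CPM).

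The genotype effect differed between 150 and 90 dpi for 5 genes in edgeR's test of that difference. The log2 values were 1.93 for Gfap, 1.50 for Aqp4, 1.89 for Sox9, -2.28 for Gja1 and -1.35 for Slc1a2. The mutant samples at 150 dpi are tumours, so time and tumour cannot be told apart in this test.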

How the results depend on the processing

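No result for the 10 genes reversed direction after a call under any alternative run. Against CKO at 90 dpi the tumours had 8 called genes, and 5 to 8 when each animal was left out in turn, the lowest without Tumor_16840. Between 90 and 12 dpi in WT 1 gene (Gja1) was called when these groups were fitted alone. In the 10-cell sets DESeq2 called 1 gene (Gfap), and 2 (Gfap and Slc1a3) were called with each library as a replicate, which also called 1 (Slc1a3) in the pool-and-split sets. For spread at 90 dpi 1 gene (Slc1a2) was called among genes found in 90% of libraries. With the set number and sex as a replicate block 0 of the 10 genes were called in either kind of small set. The numbers gave no sign of pairing, since same-numbered sets had correlations of deviations from -0.039 to 0.018. Precision was lowest in the small sets: on simulated data the 10-cell test recovered 2% of 16-fold changes and the pool-and-split test 0%.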
